A study of Homo sapiens with 6 samples.

Results

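The glycolysis and hypoxia response genes are 41 genes that encode glucose and lactate transporters, enzymes of glycolysis and of pyruvate use, the oxygen sensors and hypoxia-inducible factors (HIF), and targets of those factors. They were chosen by gene symbol, and all 41 were found among the 22354 loci of the gene counts table. CA9 had no counts in any library, and the other 40 passed the filter on low counts, as did 14860 loci in all. The question asked of them is whether their transcript levels differ when the clock gene BMAL1 is targeted, since the HIF factors and the clock factors belong to the same protein family.

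RNA was sequenced from HTori-3.1 (spelled Htoris-3.1 in the sample labels), an established line of normal human thyroid cells, in 3 libraries labelled control and 3 labelled BMAL1 knockout. The knockout cells had received Cas9 and an sgRNA against BMAL1 by lentivirus, had been selected with puromycin and grown from single clones, and the control cells are labelled wild type. Both groups were treated with etoposide, which blocks topoisomerase II and so breaks DNA, at 2 µM, and the sample labels give 12 h of exposure where the protocol gives 24 h. Total counts were 26893063, 27029060 and 28513703 in control replicates 1 to 3 and 43148059, 29860233 and 43563391 in knockout replicates 1 to 3. Mitochondrially encoded genes took 4.73%, 5.03% and 5.03% of the counts in the control replicates and 5.26%, 5.23% and 5.17% in the knockout replicates, with no overlap, and the part of that difference in the results below was not tested.

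Glycolysis splits glucose into pyruvate in the cytosol, and lactate dehydrogenase turns pyruvate into lactate when the mitochondria do not take it up. Low oxygen stops the prolyl hydroxylases of the EGLN family, so that the VHL protein no longer marks the HIF alpha subunits for degradation, and these pair with ARNT on DNA and raise the transcription of most of the genes described here. HIF alpha subunits, ARNT, CLOCK and BMAL1 all carry a basic helix-loop-helix and a PAS domain, through which they form pairs. HIF is controlled mostly through the stability of its protein, which RNA counts do not measure.

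Levels are given in CPM, each library's counts scaled to a common total with TMM factors, and differences as log2 fold changes of knockout over control, so that a negative value is lower in the libraries labelled BMAL1 knockout. A gene was called when its adjusted p in the quasi-likelihood fit of edgeR, with the Benjamini-Hochberg procedure run across the 14860 loci, was under 0.05. These p-values measure the spread between these libraries, and whether the libraries of a group came from separate cultures or clones is not stated. A lower level in a culture can come from less RNA in each cell or from fewer cells that make it, and these cannot be told apart.

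The targeted gene served as a check of the labels. BMAL1 (ENSG00000133794.20, chr11:13276652-13387266 of hg38) was measured at 11.3, 12.2 and 14.6 CPM in the control replicates and at 17.9, 19.8 and 19.4 CPM in the knockout replicates. The groups did not overlap, and the transcript of the targeted gene was the more abundant in the libraries labelled knockout. BMAL1 had a log2 fold change of 0.58 (SE 0.11), with an adjusted p of 0.0204 (edgeR quasi-likelihood, Benjamini-Hochberg). By the same edgeR test that adjusted p was 0.0896 without control replicate 1, 0.113 without control replicate 2, 0.0749 without knockout replicate 2 and 0.0598 without knockout replicate 3. The methods state that the knockout clones were checked for the protein by western blot, which was not analysed here. Counts of a transcript do not show whether the protein is made, so the group is named below by its label.

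Knockout replicate 1 stood apart from the other libraries of its group. Its counts differed from those of knockout replicates 2 and 3 by 31.0 and 45.0 times the variance of counting alone, against 7.43 times between replicates 2 and 3. Among the controls, replicate 3 differed from replicates 1 and 2 by 14.5 and 13.2 times, against 5.41 times between replicates 1 and 2. Of the 38 members with a mean of at least 1 CPM, 10 lay more than 0.2 on the log2 scale from the mean of the other libraries of the group in knockout replicate 1, against 2 in knockout replicate 2 and 3 in knockout replicate 3. In control replicates 1 to 3 there were 5, 5 and 7 such members. Those of knockout replicate 1 were PFKFB3, GAPDH, PGK1, LDHB, BNIP3, NDRG1, EGLN3, EPAS1, MXI1 and ANGPTL4, and values without that library are given beside the results that rest on it.

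Of 8 markers of thyroid follicular cells, PAX8 and FOXE1 had a mean of at least 1 CPM, while TG, TSHR, SLC5A5, DIO1 and DUOX2 lay under 1 CPM and NKX2-1 had no counts. The summed level of the 8, of which PAX8 was the most abundant, was 173, 173 and 201 CPM in the control replicates and 129.6, 149 and 173 CPM in the knockout replicates. Of 5 epithelial markers, KRT8, KRT18 and KRT19 were present, EPCAM and CDH1 lay under 1 CPM, and KRT18 was called lower. The means of KRT8 and KRT18 were lower in the knockout group, and those of KRT19, EPCAM and CDH1 were higher. Their sum, mostly KRT8, was 2266, 2313 and 2223 CPM in the control replicates and 1816, 1722 and 1767 CPM in the knockout replicates.

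Of 6 fibroblast markers, COL1A1 and PDGFRB were present, COL1A2 and PDGFRA lay under 1 CPM and DCN and LUM were at 0 in each library. Their sum, mostly COL1A1, was 922, 926 and 789.6 CPM in the control replicates and 718, 935 and 989 CPM in the knockout replicates, which overlapped. Of 5 endothelial markers only VWF reached a mean of 1 CPM, and the sums were 2.27, 2.28 and 2.54 CPM in the control replicates and 1.73, 1.47 and 2.08 CPM in the knockout replicates. Of 4 immune markers, CD3E was at 0, CD14 and LYZ lay under a mean of 1 CPM, and PTPRC, the most abundant, was called lower. The mean of LYZ was also lower in the knockout group, and that of CD14 was higher. The immune sum was 6.82, 6.77 and 7.18 CPM in the control replicates and 3.00, 3.11 and 3.68 CPM in the knockout replicates. The part of the differences in the epithelial and immune sums in the results on glycolysis and hypoxia genes was not tested.

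Among the 40 members tested, edgeR called 2 lower in the libraries labelled BMAL1 knockout, SLC2A1 and ANGPTL4, where 1.43% of all loci were called lower. It called 0 higher, where 1.08% of all loci were called higher. At an unadjusted p under 0.05, 3 members were higher (9.08% of all loci) and 11 were lower (7.78% of all loci). The 3 higher were PDK3, KDM3A and CA12, and CA12 passed the filter on low counts only through the knockout libraries. DESeq2 called 4 members lower (2.67% of all loci), SLC2A1, ADM, SLC16A3 and ANGPTL4, and 0 higher (1.81% of all loci). The limma-voom fit called 1 lower (1.31% of all loci), SLC2A1, and 0 higher (0.794% of all loci). The groups did not overlap for 5 members that were higher (11.8% of all loci) and 12 that were lower (11.5% of all loci), each with a p of 0.1 by a two-sided exact permutation test, the smallest p that 3 against 3 libraries can give. CA12 is also among those 5.

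The median log2 fold change of the 40 was -0.056, beside 0.0099 over all loci, with 25 members on the negative side and 15 on the positive side. With scaling by library size alone that median was -0.0275, beside 0.0384 over all loci. As shares of the 40 tested, 27.5% were lower at an unadjusted p under 0.05 and 30.0% were lower with no overlap, and 7.50% and 12.5% were higher by the same rules, with CA12 counted in both. The counts of calls changed with the libraries used. Without knockout replicate 1, edgeR called 6 members lower (2.26% of all loci) and 1 higher (1.95% of all loci), with 4.21% of all loci called in either direction. Fewer loci were called in the fits that left out another library. There edgeR called 1 member lower without control replicate 1 (0.549% of all loci), without control replicate 2 (0.443%), without knockout replicate 2 (0.641%) and without knockout replicate 3 (0.979%), and 2 without control replicate 3 (0.535%). At a fold change over 2 with an unadjusted p under 0.01, edgeR called 0 members, beside 0.956% of all loci.

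The counts of calls were also larger when a trend with base composition was taken out. The median GC content of the exons was 50.7% for the members and 48.0% for all loci with a value. With each library's trend along exon GC content removed, edgeR called 7 members lower (3.78% of all loci), SLC2A1, SLC2A3, LDHA, ADM, HIF1A, SLC16A3 and ANGPTL4, and 1 higher (3.36% of all loci), KDM3A. The median of the members was then -0.053.

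**Figure D1:**
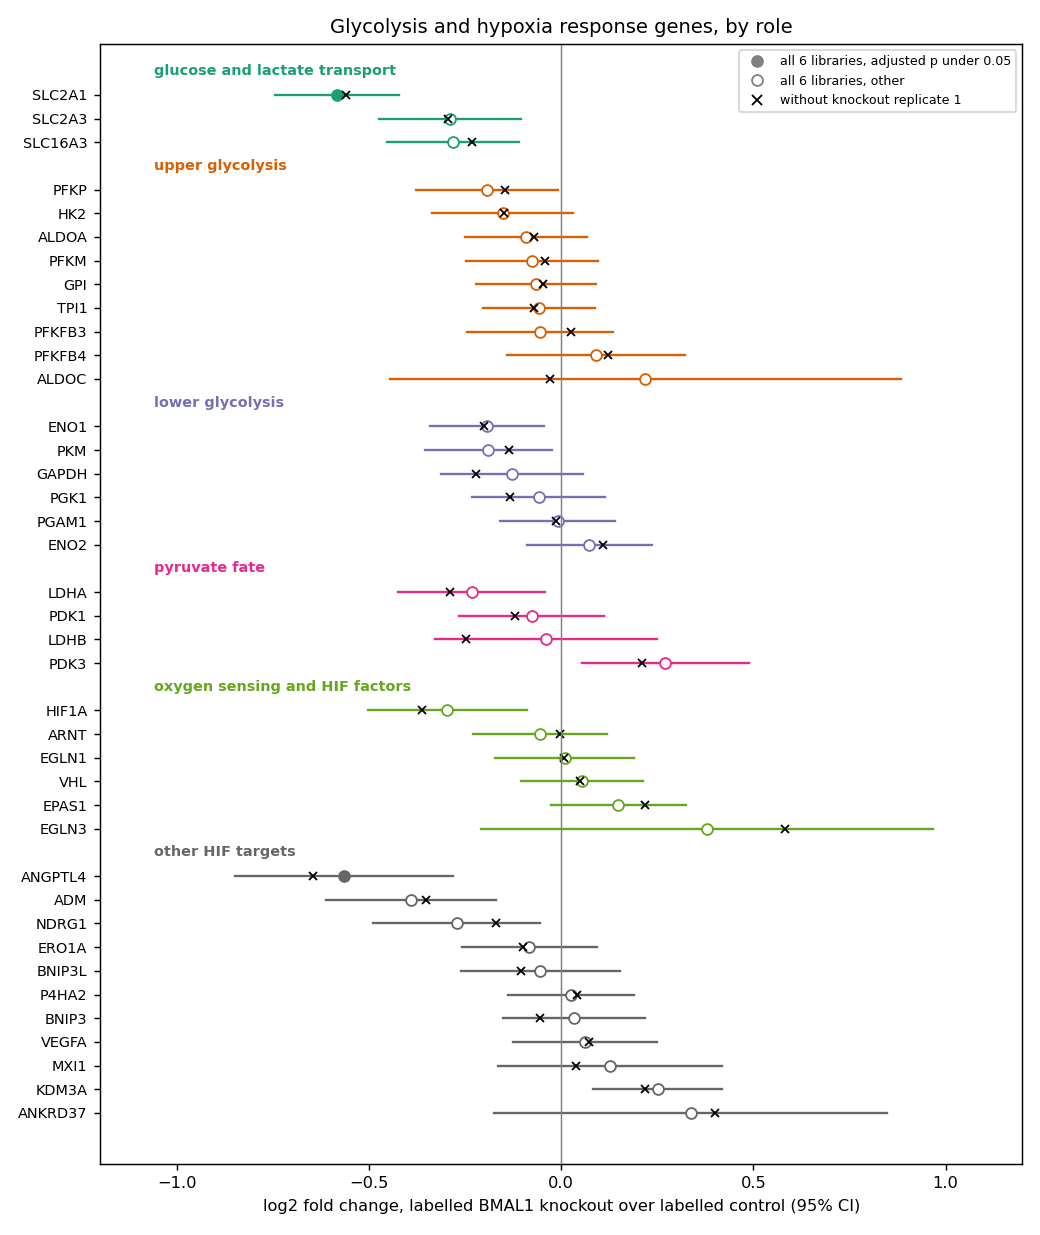
Log2 fold change of knockout over control on the horizontal axis for 39 of the 40 members tested, grouped by role, with lines for the 95% confidence interval from edgeR and crosses for the value without knockout replicate 1. CA12, at under 1 CPM and with a value of 1.84, is left out of the drawing. SLC2A1 at -0.58 and ANGPTL4 at -0.57 are the filled circles (adjusted p under 0.05), and the ALDOC, LDHB and EGLN3 crosses lie well away from their circles.

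The members that carry glucose into the cell and lactate out of it all had lower values in the 3 knockout libraries than in the controls (11.5% of all loci), and SLC2A1 passed the test. The SLC2A and SLC16A genes tested in the list of other glucose metabolism genes below all overlapped between groups. There SLC2A6, SLC2A12, SLC16A1 and SLC16A7 lay on the negative side, and SLC2A8, SLC2A10 and SLC16A8 on the positive side. SLC2A1 encodes GLUT1, the widely expressed glucose transporter, and SLC2A3 encodes GLUT3, a glucose transporter of high affinity. SLC16A3 encodes MCT4, which exports lactate. Of these 3 genes edgeR called 1 lower (1.43% of all loci) and DESeq2 called 2 lower (2.67%), all 3 were lower at an unadjusted p under 0.05 (7.78%), and their median log2 fold change was -0.29. The summed level of the 3 was 477, 473 and 458 CPM in the control replicates and 346, 375 and 375 CPM in the knockout replicates, with no overlap.

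SLC2A1 (ENSG00000117394.24, chr1:42925353-42958893, reverse strand) was measured at 136, 126 and 131 CPM in the control replicates and at 84.3, 86.1 and 91.8 CPM in the knockout replicates. The libraries of each group lay close together, and the highest knockout library was well under the lowest control library. The level in the knockout group was 66.7% of that in the control group, 87.4 ± 3.92 against 131 ± 5.03 CPM (SD, n = 3 each). On the log2 scale the fold change was -0.58 (SE 0.074, 95% confidence interval -0.75 to -0.42), with an adjusted p of 0.00233 (edgeR quasi-likelihood, Benjamini-Hochberg). SLC2A1 was called in all 6 fits that each left out a library, with adjusted p-values from edgeR of 0.00136 to 0.0173. Its exons share 497 bases with a gene annotated on the opposite strand that has no entry in the counts table, and whether the counts keep the strand is not stated. Of the 40 tested loci nearest to SLC2A1 on its chromosome, 25 lay on the negative side, with a median log2 fold change of -0.038, and only PTPRF was called.

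Promoters of some members are shown here and below. SLC2A1, SLC16A3, LDHA and ANGPTL4 are textbook HIF targets and had lower values in all 3 knockout libraries than in the controls (11.5% of all loci). HK2, TPI1, ENO1, PKM, ADM and HIF1A were also lower in all 3, and their windows are not printed. Of those windows only that of HK2 holds ACGTG, so the printed ones do not stand for the lower members. The sequences are from RefSeq on GRCh38.p14, stop before the first annotated exon of the transcript, and run 5′ to 3′ on the strand of the gene. The letters searched for were ACGTG, the core that HIF binds, GCGTG, its other form, and CACGTG, the E-box that CLOCK and BMAL1 bind, on both strands. Each CACGTG also holds ACGTG, read once on each strand, so the counts overlap. Capitals mark a match to ACGTG or, read on the other strand, CACGT. The SLC2A1 window is chr1:42958894-42959118 on the reverse strand, 225 bases.

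SLC2A1 promoter: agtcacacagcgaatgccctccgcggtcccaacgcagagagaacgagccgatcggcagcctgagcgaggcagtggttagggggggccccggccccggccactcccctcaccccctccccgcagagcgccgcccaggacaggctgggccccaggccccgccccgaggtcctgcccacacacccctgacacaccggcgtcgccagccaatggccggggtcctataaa

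None of the searched letters is in that window, which says nothing of sites elsewhere. The SLC16A3 window is chr17:82228792-82229041 on the forward strand, 250 bases, and holds ACGTG at 68 and 55 bases before the start.

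SLC16A3 promoter: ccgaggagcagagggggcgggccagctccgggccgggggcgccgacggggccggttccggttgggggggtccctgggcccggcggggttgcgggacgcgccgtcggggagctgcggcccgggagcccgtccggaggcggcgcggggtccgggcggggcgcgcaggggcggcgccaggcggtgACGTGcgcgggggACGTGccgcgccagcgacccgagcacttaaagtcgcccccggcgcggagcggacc

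SLC16A3 (ENSG00000141526.18, chr17:82217934-82261129) was measured at 284, 289 and 261 CPM in the control replicates and at 212, 239 and 235 CPM in the knockout replicates. No knockout library reached the controls, and knockout replicate 1 was the lowest library. SLC16A3 had a log2 fold change of -0.28 (SE 0.079, 95% confidence interval -0.45 to -0.11), and its adjusted p was 0.0874 (edgeR quasi-likelihood, Benjamini-Hochberg), over the threshold, where DESeq2 gave an adjusted p of 0.0126 and the fits that left out a library 0.0553 to 0.313. Exons of CSNK1D on the opposite strand share 482 bases with those of SLC16A3, and the CSNK1D locus held 4542 to 7104 counts a library.

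SLC2A3 (ENSG00000059804.17, chr12:7919230-8019007) was measured at 56.6, 57.4 and 66.2 CPM in the control replicates and at 49.4, 49.6 and 48.5 CPM in the knockout replicates. The knockout libraries lay close together and all below the controls, of which replicate 3 was the highest. SLC2A3 had a log2 fold change of -0.29 (SE 0.085, 95% confidence interval -0.47 to -0.10), and the adjusted p was 0.102 (edgeR quasi-likelihood, Benjamini-Hochberg).

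**Figure D2:**
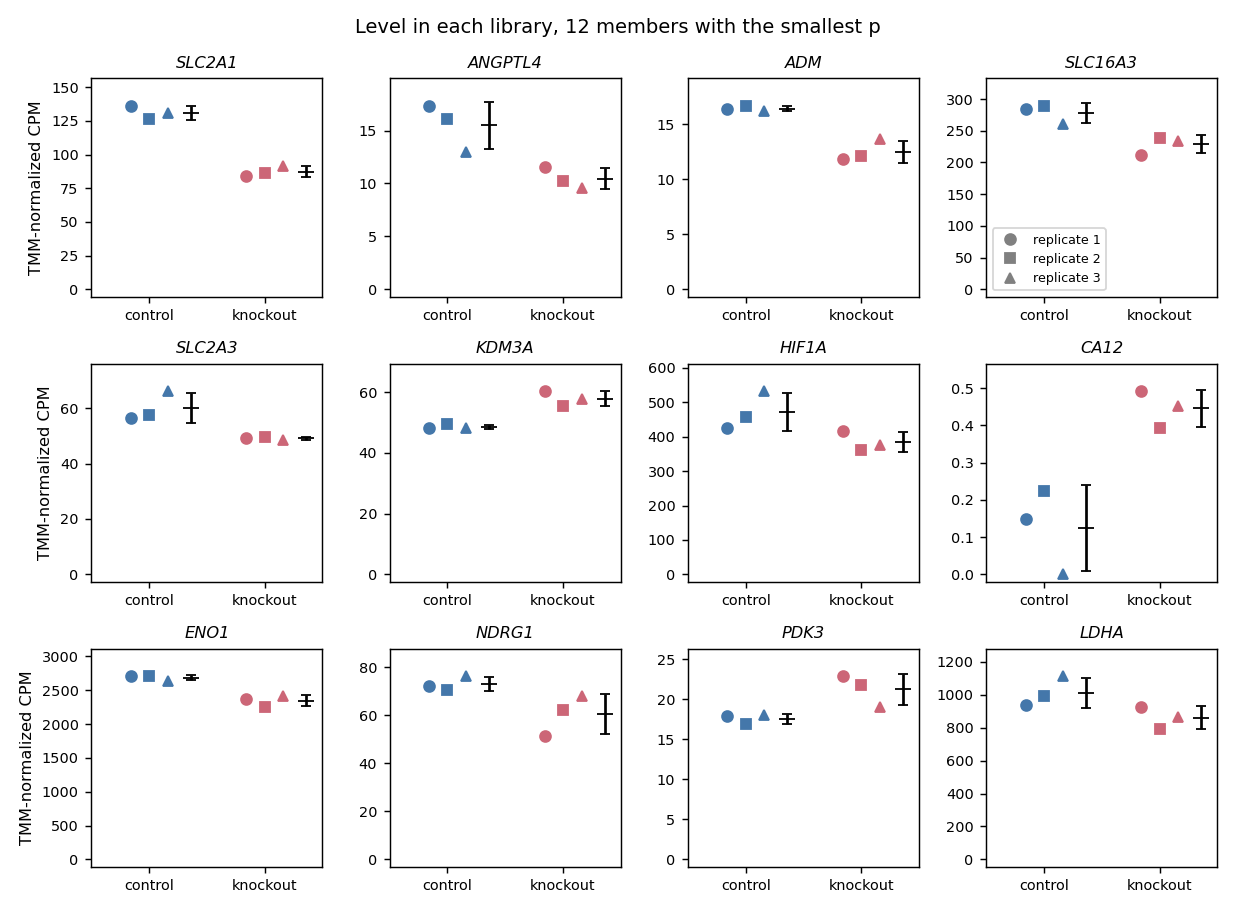
TMM-normalized CPM on the vertical axis, which includes 0, in each library for the 12 members with the smallest p, with replicates 1, 2 and 3 as circles, squares and triangles, and the mean ± SD of each group (n = 3) beside the points. In 9 of the 12 the knockout libraries all lie below the controls (11.5% of all loci), and in KDM3A, CA12 and PDK3 they all lie above (11.8%). The 12 were picked by p, which favours groups that do not overlap, so no conclusion is drawn from these counts. CA12 passed the filter on low counts only through the knockout libraries.

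Upper glycolysis, from the trapping of glucose to the triose phosphates, had 9 members and no call in edgeR (2.51% of all loci in either direction), DESeq2 (4.48%) or limma-voom (2.10%). PFKP alone was lower at an unadjusted p under 0.05 (7.78% of all loci), and 0 were higher (9.08%). The median log2 fold change was -0.066, and 7 of the 9 lay on the negative side. That median was -0.10 without knockout replicate 3, -0.048 without knockout replicate 1, -0.037 with scaling by library size alone and -0.035 with the GC trend removed. PFKP, a form of phosphofructokinase, the enzyme that commits sugar to glycolysis, differed most among those with at least 1 CPM. Its levels were 320.3, 306 and 269 CPM in the control replicates and 244, 270.2 and 269 CPM in the knockout replicates. Control replicate 3 lay among the knockout libraries, so the groups overlapped. PFKP had a log2 fold change of -0.19 (SE 0.085), with an adjusted p of 0.272 (edgeR quasi-likelihood, Benjamini-Hochberg).

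HK2, the hexokinase that traps glucose as glucose 6-phosphate, was measured at 33.9, 34.3 and 30.7 CPM in the control replicates and at 29.5, 29.8 and 29.7 CPM in the knockout replicates, with no overlap and a log2 fold change of -0.15. For TPI1, which interconverts the triose phosphates, the control libraries held 1022, 1008 and 1007 CPM and the knockout libraries 989, 966 and 964 CPM, also with no overlap and with a log2 fold change of -0.057. The other genes of this stretch overlapped between groups. Their log2 fold changes were -0.066 for GPI, -0.076 for PFKM, -0.093 for the aldolase gene ALDOA, -0.055 for PFKFB3 and 0.091 for PFKFB4, whose enzymes set the level of fructose 2,6-bisphosphate, and 0.22 for ALDOC, which lay under 1 CPM in 5 of the 6 libraries. Each of these 6 intervals from edgeR included 0, the widest being that of ALDOC at -0.45 to 0.88. The 95% confidence intervals of HK2 (-0.34 to 0.031) and TPI1 (-0.20 to 0.089) also included 0. Of all loci, 11.5% were lower with no overlap. The values of PFKFB3 and ALDOC turned to 0.025 and -0.029 without knockout replicate 1. Over the 6 fits that each left out a library, GPI ranged from -0.10 to -0.045, PFKM from -0.12 to -0.043 and PFKFB4 from 0.044 to 0.17.

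Lower glycolysis, from GAPDH to pyruvate kinase, had 6 members and again no call by edgeR with all 6 libraries (2.51% of all loci in either direction), by DESeq2 (4.48%) or by limma-voom (2.10%). ENO1 and PKM were lower at an unadjusted p under 0.05 (7.78% of all loci), and 0 were higher (9.08%). ENO1 encodes the main enolase of most tissues. It was measured at 2705, 2706 and 2637 CPM in the control replicates and at 2369, 2256 and 2413 CPM in the knockout replicates. The groups were clear of each other, at 2683 ± 39.5 against 2346 ± 80.8 CPM (SD, n = 3 each). ENO1 had a log2 fold change of -0.19 (SE 0.068, 95% confidence interval -0.34 to -0.045), with an adjusted p of 0.169 (edgeR quasi-likelihood, Benjamini-Hochberg), and of 0.0325, without knockout replicate 1, to 0.466 when a library was left out.

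PKM, which encodes the muscle-type pyruvate kinases, was measured at 2029.6, 2004 and 2061 CPM in the control replicates and at 1644, 1784 and 1915 CPM in the knockout replicates. All knockout libraries lay below the controls, and the knockout libraries were the more widely spread. PKM had a log2 fold change of -0.19, with an adjusted p of 0.225 (edgeR quasi-likelihood, Benjamini-Hochberg). PGK1, PGAM1 and the neuronal enolase gene ENO2 overlapped between groups, with log2 fold changes of -0.059, -0.0093 and 0.073. PGK1 ranged from -0.13, without knockout replicate 1, to -0.013 when a library was left out, and ENO2 from 0.040 to 0.11. PGAM1 turned to 0.0055 without control replicate 3, 0.012 without knockout replicate 2, 0.020 with scaling by library size alone and 0.018 with the GC trend removed.

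GAPDH, the glyceraldehyde 3-phosphate dehydrogenase of glycolysis, is also the reference gene of the study's RT-qPCR. Its primers are printed to show which part of the transcript that reference reads. They are the designed oligos of the study, placed on hg38 with the exons of the MANE Select transcript from GENCODE. The product between them is 148 bases of the transcript.

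GAPDH forward primer: tcggagtcaacggatttggt

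GAPDH reverse primer: ttgccatgggtggaatcata

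The forward primer crosses the junction of exons 2 and 3, chr12:6534849-6536500, and the reverse primer lies in exon 4, chr12:6536699-6536718. GAPDH (ENSG00000111640.15, chr12:6534512-6538374) was measured at 5125, 5302 and 4947 CPM in the control replicates and at 5269, 4309 and 4483 CPM in the knockout replicates. Knockout replicate 1 lay with the controls, and the other knockout libraries lay below them. GAPDH had a log2 fold change of -0.13 (SE 0.085, 95% confidence interval -0.31 to 0.056), with an adjusted p of 0.481 (edgeR quasi-likelihood, Benjamini-Hochberg). Without knockout replicate 1 it was -0.22, with an adjusted p of 0.0190 from the same edgeR test, while the other fits that left out a library reached -0.072 and an adjusted p of 0.801. The annotation names 65 pseudogenes after GAPDH, 44 after BNIP3, 13 after PGAM1, 6 after LDHA, 5 after PKM and 4 each after ENO1 and TPI1, and 17 members have at least 1. Reads that match such a copy equally well are not among the uniquely mapped reads that were counted.

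Pyruvate fate had 4 members, none of them called with all 6 libraries by edgeR (2.51% of all loci in either direction), DESeq2 (4.48%) or limma-voom (2.10%). With an unadjusted p under 0.05, PDK3 was higher (9.08% of all loci) and LDHA lower (7.78%). LDHA and LDHB encode the subunits of lactate dehydrogenase. The LDHA window was also chosen because it has the most ACGTG matches among the 36 promoters held. The window shown is chr11:18394313-18394559 on the forward strand, 247 bases. It holds 5 matches, 4 of which come from 2 CACGTG.

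LDHA promoter: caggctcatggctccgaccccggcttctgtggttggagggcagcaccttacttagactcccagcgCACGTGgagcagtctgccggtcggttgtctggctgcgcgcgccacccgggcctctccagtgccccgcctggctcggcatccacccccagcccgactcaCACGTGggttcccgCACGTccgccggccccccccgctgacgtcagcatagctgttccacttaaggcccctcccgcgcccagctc

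LDHA (ENSG00000134333.15, chr11:18394560-18408425) was measured at 935, 989 and 1111 CPM in the control replicates and at 926, 791 and 866 CPM in the knockout replicates. The groups only just failed to overlap, with knockout replicate 1 close under control replicate 1. LDHA had a log2 fold change of -0.23 (SE 0.088, 95% confidence interval -0.42 to -0.042), with an adjusted p of 0.197 (edgeR quasi-likelihood, Benjamini-Hochberg).

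LDHB was measured at 1014, 1078 and 1125 CPM in the control replicates and at 1322, 899 and 908 CPM in the knockout replicates. Knockout replicate 1 was the highest of the 6 libraries, and the other knockout libraries were the lowest. Its log2 fold change was -0.040 with all libraries and -0.25 without knockout replicate 1, with adjusted p-values of 0.915 and 0.0298 (edgeR quasi-likelihood, Benjamini-Hochberg). Its adjusted p reached 1.00 when another library was left out. It turned to 0.057 without knockout replicate 2 and 0.051 without knockout replicate 3.

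PDK1 and PDK3 encode kinases that switch off pyruvate dehydrogenase and so keep pyruvate out of the mitochondrial oxidation. PDK3 (ENSG00000067992.17) was measured at 17.9, 16.9 and 18.0 CPM in the control replicates and at 22.9, 21.8 and 19.0 CPM in the knockout replicates. The knockout libraries were all higher, replicate 3 least so. PDK3 had a log2 fold change of 0.27 (SE 0.099, 95% confidence interval 0.054 to 0.49), with an adjusted p of 0.188 (edgeR quasi-likelihood, Benjamini-Hochberg). PDK1 overlapped between groups, with a log2 fold change of -0.077, which ranged from -0.12, without knockout replicate 1, to -0.044 when a library was left out.

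**Figure D3:**
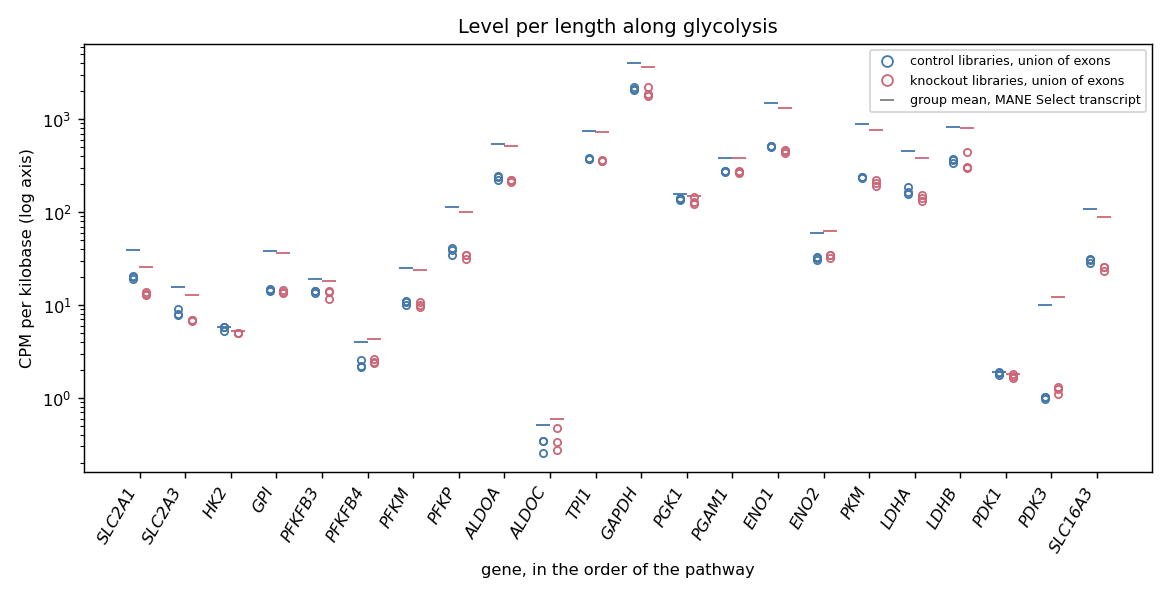
CPM per kilobase on a log axis for the transport, glycolysis and pyruvate members in the order of the pathway, with a point for each library (blue control, red knockout, union of annotated exons) and a line for the group mean by the length of the MANE Select transcript. The highest levels lie in the stretch from ALDOA to LDHB, with GAPDH at the top, but ALDOC and ENO2 in that stretch lie lower. The SLC2A1, SLC2A3, HK2, PDK1 and PDK3 levels also lie far below that of GAPDH. By the MANE Select length SLC16A3 has a control mean of 107 CPM per kilobase, against 155 for PGK1.

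Levels of different genes can be compared only per length. Per kilobase of exon, GAPDH was the most abundant member in the control group, at 2139 ± 74.0 CPM per kilobase, then ENO1 at 514 ± 7.58 and TPI1 at 375 ± 3.08 (SD, n = 3). LDHB, at 359.5 ± 18.6 CPM per kilobase, did not differ from TPI1 beyond its spread, nor did PKM at 237 ± 3.35 from ALDOA at 234 ± 12.4. PGAM1, LDHA and PGK1 were the others of the 9 members with at least 100 CPM per kilobase, and all 9 encode enzymes of glycolysis or lactate dehydrogenase. HIF1A came next at 91.6 ± 10.7 CPM per kilobase. SLC2A1 took place 16 in the control group, at 19.8 ± 0.761 CPM per kilobase, and place 19 in the knockout group, at 13.2 ± 0.592. With the length of the MANE Select transcript in place of all annotated exons, a choice made after seeing the data, 12 members had at least 100 CPM per kilobase in the control group and GAPDH and ENO1 kept the first places. By that length PKM, at 881 ± 12.5 CPM per kilobase, lay above ALDOA at 546 ± 29.0, and LDHB, at 823 ± 42.6, above TPI1 at 749 ± 6.15, so the order of these genes rests on the length chosen.

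The oxygen sensors and HIF factors, 6 members, had no call with all 6 libraries in edgeR (2.51% of all loci in either direction), DESeq2 (4.48%) or limma-voom (2.10%). HIF1A alone was lower at an unadjusted p under 0.05 (7.78% of all loci), and 0 were higher (9.08%). Their median log2 fold change was 0.031, and without control replicate 1 it turned to -0.0042, where it was 0.078 without control replicate 3 and 0.061 with scaling by library size alone. HIF1A encodes the alpha subunit found in nearly all cells. HIF1A (ENSG00000100644.17, chr14:61695513-61748259) was measured at 426, 457 and 533 CPM in the control replicates and at 418, 360.0 and 375 CPM in the knockout replicates. The groups did not overlap, but knockout replicate 1 lay close under control replicate 1 and control replicate 3 was far the highest. HIF1A had a log2 fold change of -0.30 (SE 0.095, 95% confidence interval -0.50 to -0.090), with an adjusted p of 0.130 (edgeR quasi-likelihood, Benjamini-Hochberg). By the same edgeR test it was 0.00746 with the GC trend removed, and it ranged from 0.0454, without knockout replicate 1, to 0.359 when a library was left out, with log2 fold changes of -0.37 to -0.20. Exons of genes on the opposite strand share 432 bases with HIF1A.

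EPAS1, which encodes HIF-2 alpha, was measured at 188, 189 and 186 CPM in the control replicates and at 187, 217 and 220.3 CPM in the knockout replicates. Knockout replicate 1 lay among the tightly grouped controls, and the other knockout libraries lay above them. Its log2 fold change was 0.15 (95% confidence interval -0.027 to 0.32) with all libraries and 0.22 without knockout replicate 1, with adjusted p-values of 0.380 and 0.0474 (edgeR quasi-likelihood, Benjamini-Hochberg). The lowest of the fits that left out a library was 0.10, and the highest adjusted p among them 0.669. So the alpha subunit genes had point estimates of opposite sign, though the difference between them was not tested.

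ARNT, the partner of both alpha subunits, was measured at 56.7, 58.8 and 59.4 CPM in the control replicates and at 51.9, 58.8 and 57.7 CPM in the knockout replicates. The groups overlapped, and the log2 fold change was -0.055 (95% confidence interval -0.23 to 0.12), with a range of -0.089 to -0.0035 when a library was left out, the latter without knockout replicate 1. VHL was measured at 56.7, 56.8 and 58.1 CPM in the control replicates and at 59.6, 60.1 and 58.3 CPM in the knockout replicates. The knockout libraries were all higher, by a small margin, with a log2 fold change of 0.054 (95% confidence interval -0.11 to 0.21).

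EGLN1 encodes PHD2, the main oxygen sensor of most cells, and its log2 fold change was 0.0089 (95% confidence interval -0.17 to 0.19), which turned to -0.055 without control replicate 1 and -0.00081 without control replicate 2. EGLN3, a hydroxylase gene that HIF itself induces, was measured at 1.19, 1.53 and 1.32 CPM in the control replicates and at 1.24, 2.36 and 1.72 CPM in the knockout replicates. Knockout replicate 2 was the highest and knockout replicate 1 lay among the controls. The log2 fold change of EGLN3 was 0.38 (95% confidence interval -0.21 to 0.97), with an adjusted p of 0.517 (edgeR quasi-likelihood, Benjamini-Hochberg). That fold change was 0.58 without knockout replicate 1 and 0.13 without knockout replicate 2.

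**Figure D4:**
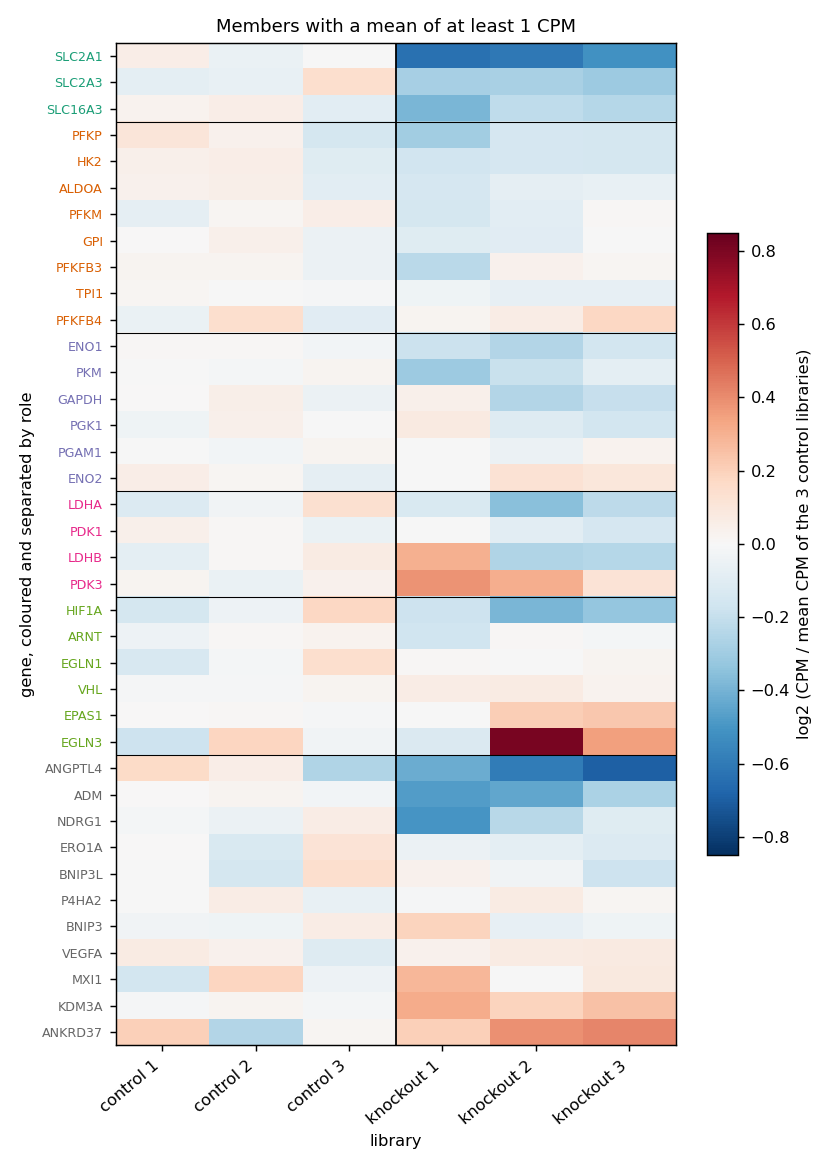
Log2 of the level in each library (columns) over the mean of the 3 control libraries, for the 38 members with a mean of at least 1 CPM (lines grouped by role), on a colour scale from -0.85 (blue) to 0.85 (red). The SLC2A1 line is blue in all 3 knockout libraries, and knockout replicate 1 differs in colour from the other knockout libraries for GAPDH, PGK1, LDHB and EPAS1.

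The other HIF targets, 13 members of which 12 were tested, had 1 called lower by edgeR (1.43% of all loci), ANGPTL4, and 2 by DESeq2 (2.67%), ADM and ANGPTL4, and 0 called higher by either (1.08% and 1.81%). At an unadjusted p under 0.05, 2 were higher (9.08% of all loci), KDM3A and CA12, and 3 lower (7.78%). Of these, CA12 passed the filter on low counts only through the knockout libraries. ANGPTL4 encodes a secreted inhibitor of lipoprotein lipase. Its promoter window is chr19:8363905-8364154 on the forward strand, 250 bases, with 1 ACGTG on the other strand 234 bases before the start.

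ANGPTL4 promoter: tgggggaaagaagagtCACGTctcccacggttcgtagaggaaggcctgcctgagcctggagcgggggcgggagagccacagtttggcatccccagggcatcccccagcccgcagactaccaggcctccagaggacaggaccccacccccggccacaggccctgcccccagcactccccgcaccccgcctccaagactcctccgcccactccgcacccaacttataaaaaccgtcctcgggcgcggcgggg

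ANGPTL4 (ENSG00000167772.12, chr19:8363289-8374370) was measured at 17.3, 16.1 and 13.0 CPM in the control replicates and at 11.5, 10.3 and 9.57 CPM in the knockout replicates. All knockout libraries lay below the controls, and control replicate 3 came closest to the knockout libraries. The knockout level was 67.6% of the control level. ANGPTL4 had a log2 fold change of -0.57 (SE 0.13, 95% confidence interval -0.85 to -0.28), with an adjusted p of 0.0435 (edgeR quasi-likelihood, Benjamini-Hochberg). That call rested on the setting and on the libraries used. Without robust estimation in edgeR, an alternative chosen after seeing the data, the adjusted p was 0.0572, SLC2A1 was the only member called lower (1.16% of all loci), and 0 were called higher (0.828% of all loci). Without knockout replicate 1 its log2 fold change was -0.65, with an adjusted p of 0.0245 from edgeR. The adjusted p from edgeR was 0.159 without control replicate 1, 0.174 without control replicate 2, 0.124 without knockout replicate 2 and 0.116 without knockout replicate 3. No other annotated exon overlaps ANGPTL4, and of the 40 tested loci nearest to it 20 lay on the negative side.

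ADM encodes adrenomedullin, a peptide that widens blood vessels. It was measured at 16.4, 16.7 and 16.2 CPM in the control replicates and at 11.8, 12.1 and 13.7 CPM in the knockout replicates. The controls lay close together and all above the knockout libraries. ADM (ENSG00000148926.10) had a log2 fold change of -0.39 (SE 0.10, 95% confidence interval -0.61 to -0.17), with an adjusted p of 0.0661 (edgeR quasi-likelihood, Benjamini-Hochberg) and of 0.0456 from DESeq2. The fits that left out a library gave 0.0797 to 0.238.

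NDRG1, a stress-responsive gene, was measured at 72.2, 70.6 and 76.2 CPM in the control replicates and at 51.5, 62.0 and 67.8 CPM in the knockout replicates. The groups did not overlap, and knockout replicate 1 was the lowest. Its log2 fold change was -0.27 with all libraries and -0.17 without knockout replicate 1, with adjusted p-values of 0.188 and 0.221 (edgeR quasi-likelihood, Benjamini-Hochberg).

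KDM3A, which encodes a histone H3 lysine 9 demethylase, was measured at 48.2, 49.4 and 48.1 CPM in the control replicates and at 60.4, 55.4 and 57.6 CPM in the knockout replicates. The knockout libraries were all higher. The log2 fold change was 0.25 (SE 0.077, 95% confidence interval 0.084 to 0.42), with an adjusted p of 0.115 (edgeR quasi-likelihood, Benjamini-Hochberg).

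The carbonic anhydrase genes CA9 and CA12, whose enzymes help to export acid, were at the limit of detection. CA12 had 4, 6 and 0 counts in the control replicates and 21, 12 and 20 counts in the knockout replicates. The knockout libraries all held more, but at so few counts its log2 fold change of 1.84 had a 95% confidence interval of 0.46 to 3.21 and an adjusted p of 0.158 (edgeR quasi-likelihood, Benjamini-Hochberg). CA12 passed the filter on low counts only through the knockout libraries, where it is high, so no conclusion is drawn from its test. CA9, a widely used hypoxia marker, had 0 counts in each library, which allows up to 0.107 to 0.112 CPM in the control libraries and 0.0677 to 0.0983 CPM in the knockout libraries (3 counts each, counting error only). Exons of ARHGEF39 on the opposite strand share 571 bases with CA9, and that locus held 413 to 859 counts a library.

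For VEGFA, the angiogenic growth factor, the log2 fold change was 0.062 (95% confidence interval -0.13 to 0.25), and 0.013 to 0.096 when a library was left out. BNIP3 and BNIP3L, which act in mitophagy, had log2 fold changes of 0.033 and -0.055. Without knockout replicate 1 these were -0.055 and -0.10, so BNIP3 turned, and BNIP3L turned to 0.025 without control replicate 3 and 0.0025 without knockout replicate 3. ANKRD37 was measured at 1.379, 1.01 and 1.21 CPM in the control replicates and at 1.382, 1.57 and 1.60 CPM in the knockout replicates, with a log2 fold change of 0.34 and a 95% confidence interval of -0.17 to 0.85. P4HA2, for collagen prolyl hydroxylation, MXI1, a MYC antagonist, and ERO1A, the oxidase of the endoplasmic reticulum, had log2 fold changes of 0.025, 0.13 and -0.083. MXI1 ranged from 0.039, without knockout replicate 1, to 0.23 when a library was left out, ERO1A from -0.14 to -0.018, and P4HA2 turned to -0.0029 without control replicate 3. Except for ANKRD37, these genes overlapped between groups, so well-known HIF targets lay on either side of no difference.

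Of the 41 members, 25 share exon sequence with another annotated gene and 16 do not, and 12 have a partner that is itself in the counts table. With the loci that share exons left out, 16 members remained and edgeR called 1 lower (1.99% of all such loci), ANGPTL4. SLC2A1 shares exon sequence and so was not tested there. The summed level of all 41 members was 17879, 18199 and 17948 CPM in the control replicates and 17284, 15729.6 and 16327 CPM in the knockout replicates. The groups did not overlap, and GAPDH was the most abundant gene of that sum.

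Promoter windows were held for 36 of the 41 members, and those of SLC2A3, VEGFA, BNIP3L, NDRG1 and VHL were not used. The windows are the bases before the gene starts of RefSeq. Of the 36, 8 lie wholly in annotated exons, and 6 end 204 to 3283 bases from the start of the MANE Select transcript, and whether transcription starts at them in these cells was not tested. Over 250 bases, ACGTG was present on either strand in 18 of the 36 windows (50.0%), against 18.5% of 34943 promoters of all genes. GCGTG was present in 13 (36.1%), against 32.2%, and CACGTG in 6 (16.7%), against 6.32%. Either of ACGTG and GCGTG was present in 25 (69.4%), against 43.2%. For each member the window nearest the start of its MANE Select transcript was used, while the 34943 can include several windows of a gene. Many members were listed as HIF targets, so a larger share with the HIF core follows from the choice. No conclusion is drawn from these shares. Windows with and without these letters both occurred among the lower members, as the promoters of SLC2A1 and ANGPTL4 show.

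The other genes of glucose metabolism, 55 in number with 45 tested, had 0 calls in edgeR (2.51% of all loci in either direction), 2 in DESeq2 (4.48%) and 0 in limma-voom (2.10%). At an unadjusted p under 0.05, 2 were higher (9.08% of all loci) and 4 lower (7.78%), and the median log2 fold change was -0.018. That median was -0.055 without knockout replicate 1, -0.0066 without knockout replicate 2, -0.029 without knockout replicate 3 and -0.00030 without control replicate 1, and it turned to 0.010 with scaling by library size alone. With the GC trend removed it was -0.0087. The DESeq2 calls were PYGL, the liver glycogen phosphorylase gene, and PFKL, the liver phosphofructokinase gene, which were singled out after their values were seen. PYGL was measured at 201, 199 and 199.6 CPM in the control replicates and at 172, 164 and 169.9 CPM in the knockout replicates, with a log2 fold change of -0.24 and an adjusted p of 0.0874 (edgeR quasi-likelihood, Benjamini-Hochberg). For PFKL the control replicates held 175, 170 and 141 CPM and the knockout replicates 124, 135 and 137 CPM. Its log2 fold change was -0.30, with an adjusted p of 0.115 from the same edgeR test and 0.0408 from DESeq2. Without knockout replicate 1, PYGL alone of this list was called (4.21% of all loci in either direction), with an adjusted p of 0.0283 from the same edgeR test, which reached 0.326 when another library was left out.

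The other genes of the hypoxia pathway, 48 in number with 44 tested, had 2 called higher (1.08% of all loci) and 1 lower (1.43%) by edgeR, 5 called in either direction by DESeq2 (4.48%) and 3 by limma-voom (2.10%). At an unadjusted p under 0.05, 9 were higher (9.08% of all loci) and 4 lower (7.78%). The 9 include CXCR4, which passed the filter on low counts only through the knockout libraries. Their median log2 fold change was 0.0049, 0.035 with scaling by library size alone and 0.028 with the GC trend removed, and it lay between -0.012, without control replicate 1, and 0.018, without control replicate 2, when a library was left out. IGFBP3, which binds insulin-like growth factors, was measured at 27.2, 25.8 and 24.8 CPM in the control replicates and at 40.8, 44.5 and 46.4 CPM in the knockout replicates. It rose by a log2 fold change of 0.76 (SE 0.088), with an adjusted p of 0.00162 (edgeR quasi-likelihood, Benjamini-Hochberg). STC2, a secreted glycoprotein gene, was measured at 376, 357 and 349.9 CPM in the control replicates and at 252, 251 and 255 CPM in the knockout replicates. Its log2 fold change was -0.51 (SE 0.070), with an adjusted p of 0.00315 from the same edgeR test. IGFBP3 and STC2 were called in all 6 fits that each left out a library, in opposite directions.

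DDIT4 encodes REDD1, which restrains mTORC1 under stress. It was measured at 29.7, 28.5 and 29.6 CPM in the control replicates and at 37.5, 42.3 and 43.6 CPM in the knockout replicates. The knockout libraries were all higher, by a log2 fold change of 0.49 (SE 0.088), with an adjusted p of 0.0149 (edgeR quasi-likelihood, Benjamini-Hochberg). That adjusted p from edgeR was 0.00283 without knockout replicate 1, and 0.0582, 0.0883, 0.0574, 0.0633 and 0.0504 without control replicates 1, 2 and 3 and knockout replicates 2 and 3.

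The list of 22 PAS genes holds 19 of the bHLH-PAS family, to which the HIF factors and BMAL1 belong, and PER1, PER2 and PER3, whose proteins have PAS domains only. Of the 22, 18 were tested, and edgeR called BMAL1 higher and PER3 lower, as it did 1.08% and 1.43% of all loci. The median log2 fold change of the 18 was -0.024, and it turned to 0.015 without knockout replicate 1 and to 0.0053 with scaling by library size alone. It was -0.043 without control replicate 2, -0.055 without knockout replicate 2, -0.0059 without knockout replicate 3 and -0.050 with the GC trend removed. CLOCK, the usual partner of BMAL1, was measured at 110.0, 114 and 128 CPM in the control replicates and at 108, 105 and 111 CPM in the knockout replicates, which overlapped. Its log2 fold change was -0.12 (95% confidence interval -0.29 to 0.054), and -0.16 to -0.049 when a library was left out. NPAS2, which can take the place of CLOCK, was measured at 16.3, 14.1 and 13.3 CPM in the control replicates and at 11.5, 11.8 and 12.5 CPM in the knockout replicates. All knockout libraries were the lower, and the log2 fold change of NPAS2 was -0.28, with an adjusted p of 0.214 (edgeR quasi-likelihood, Benjamini-Hochberg). BMAL2, the paralog of BMAL1, had a log2 fold change of -0.0094, which was positive with scaling by library size alone.

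PER3, a clock repressor with PAS domains, was measured at 27.5, 26.1 and 26.2 CPM in the control replicates and at 18.2, 18.1 and 20.5 CPM in the knockout replicates. The knockout libraries were all lower. PER3 had a log2 fold change of -0.49 (SE 0.091), with an adjusted p of 0.0168 (edgeR quasi-likelihood, Benjamini-Hochberg). That adjusted p from edgeR was 0.0763, 0.0730 and 0.0596 without control replicates 1, 2 and 3 and 0.0867 without knockout replicate 2. Exons on the opposite strand share 1350 bases with PER3. The count of PAS genes called in either direction by edgeR was 5 without knockout replicate 1 (4.21% of all loci), 1 without control replicate 3 (0.932%) and 1 without knockout replicate 3 (1.66%). It was 0 without control replicate 1 (1.10%), control replicate 2 (0.747%) or knockout replicate 2 (1.08%).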

How the data were processed

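RNA from 3 control and 3 BMAL1 knockout libraries was analysed. The authors trimmed reads with fastp 0.20.1, mapped them to hg38 with HISAT2 2.0.4 and deposited, for each gene, unnormalized counts of reads that map to 1 place. These were analysed with edgeR 4.0.16 in R 4.3.3: default low-count filter, TMM, quasi-likelihood fit with robust estimation, Benjamini-Hochberg adjustment over all loci kept. Members and lists were chosen with earlier results of these data known. Genes named by rule are members called, the next by p up to 12, GAPDH, HIF1A, EPAS1, ARNT, VHL, the member of each role with the largest difference, BMAL1, CLOCK, NPAS2, BMAL2, and genes called in the other lists. PKM, LDHB, HK2, TPI1, ANKRD37, PYGL and PFKL were added after their values were seen. Alternatives were other scalings (median of ratios, library size only), other filters, DESeq2 1.42.0, limma-voom (limma 3.58.1), a replicate block, removal of GC trends, thinning, leaving out each library or overlapping loci, and other thresholds. The fit without robust estimation and the MANE Select length were chosen after seeing the data. Gene coordinates and exons are from GENCODE, promoter sequences from RefSeq. The fits were tested on simulated data.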

Additional observations from a re-analysis of the deposited data

How the results depend on the processing

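The count of members called lower, 2 by edgeR (1.43% of all loci), was 1 with library size only (1.04%), limma-voom (1.31%), no robust estimation (1.16%) or thinning (1.40%). It was also 1 among the 16 members without exon overlap (1.99%), where ANGPTL4 kept its call and SLC2A1 was not tested. It was 4 with DESeq2 (2.67%) or an adjusted p under 0.1 (2.62%), 7 with the GC trend removed (3.78%), 0 with the study's threshold (0.956% in either direction), and 1 to 6 when a library was left out (0.443% to 2.26%). The count called higher, 0 by edgeR (1.08%), was 1 with the GC trend removed (3.36%) and 0 to 1 when a library was left out (0.304% to 1.95%). The median of the members was -0.0275 with library size only, which moved the median of all loci by 0.0285, -0.0382 without overlapping loci, and -0.0627 to -0.0412 when a library was left out. Other glucose genes called in either direction were 2 with DESeq2 (4.48%) or the GC trend removed (7.15%), 1 at an adjusted p under 0.1 (5.05%), and 0 to 1 when a library was left out (0.747% to 4.21%). Other hypoxia genes called were 5 with DESeq2 or an adjusted p under 0.1, 6 with the GC trend removed and 0 with the study's threshold, beside the same shares. PAS genes called were 4 with the GC trend removed, 0 without overlapping loci (3.75%) or with the study's threshold, and 0 to 5 when a library was left out. Leaving out overlapping loci removed BMAL1 and PER3, the PAS genes called with all libraries, so the 0 there is no test of their calls. The log2 fold change of BMAL2 turned to 0.0191 with library size only, 0.0589 without control replicate 3 and 0.0260 without knockout replicate 3, and ranged from -0.0566 to 0.0589 when a library was left out. The cause was not tested.

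With a replicate block, 2 members were called lower (0.976% of all loci). With the block and the GC trend removed, 7 were called lower (3.12%) and 0 higher (2.42%), with 2 other glucose and 6 other hypoxia genes (5.54% in either direction). Against the GC fit alone, KDM3A (adjusted p 0.0682) and LDHA (0.0666) lost the call and NDRG1 (0.0499) gained it. Libraries of the same replicate number correlated at -0.0896, -0.0517 and -0.00471 in their residuals across genes. Of the values for the 26 genes named by rule, 454 kept direction and side of the threshold, 28 lost the call, 19 gained one and 3, all of BMAL2, turned. LDHB, outside that rule, turned in 2 fits. Of the 40 members tested, 8 turned in at least 1 fit that left out a library and 1 with another scaling.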
